A study of Mus musculus with 16 samples.

Results

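Expression of 33 genes of the Nrf2, glutathione and pentose phosphate systems was followed in 16 mouse livers. The genes were taken by symbol from a list made with earlier results of these data known, by a rule that used no measured value, and all 33 were found among the 17410 genes in the tables. They comprised 2 regulators, 5 Nrf2 target enzymes, 5 genes of glutathione supply and recycling, 6 peroxidase, thioredoxin and superoxide dismutase genes, 11 glutathione transferases and 4 pentose phosphate enzymes.

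Nrf2, encoded by Nfe2l2, is a transcription factor that Keap1 holds in the cytoplasm and directs to degradation. When electrophiles or oxidants modify Keap1, Nrf2 accumulates, pairs with a small Maf protein and binds antioxidant response elements in genes that make glutathione, attach it to xenobiotics or reduce quinones and peroxides. Glutathione and thioredoxin are returned to their reduced forms with NADPH, which the oxidative branch of the pentose phosphate pathway supplies. In liver these systems serve detoxification, and the same NADPH is drawn on by fatty acid synthesis.

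The 16 livers formed 4 groups of 4 in 2 experiments on ChREBPα. It is one of the protein forms made from Mlxipl, whose product switches on sugar-responsive genes. In the deletion experiment all mice were Chrebpα-flox/flox. They were given an adeno-associated virus with GFP (WT_NASH, livers 17 to 20, here control NASH livers) or with Cre (LKO_NASH, livers 21 to 24, here deletion livers) under TBG, a promoter active in hepatocytes, so other liver cells were not targeted. Both groups ate the NASH diet for 12 weeks, in which fat gave 40% and fructose 20% of the calories and cholesterol made up 2%. In the overexpression experiment wildtype mice, 2 months old, ate a choline-free HFLMCD diet, labelled as 3 weeks long, with 45% of calories from fat and 0.1% methionine added. They were given adenovirus for GFP (Ad_GFP_HFLMCD, livers 9 to 12, Ad-GFP livers) or for Chrebpα (Ad_Chrebpa_HFLMCD, livers 13 to 16, Ad-Chrebpα livers) 1 week before dissection. The labels do not state that each liver came from a separate mouse, so p-values reflect only how far these samples differ among themselves, which may be technical.

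The libraries held 21254937 to 40327264 expected counts. Levels are given as normalised FPKM, that is, FPKM recomputed from the expected counts and transcript lengths, with library totals scaled by TMM over the 16 libraries. The deposited FPKM lay on another scale: relative to the normalised values, its median over genes was shifted by 0.16 on the log2 scale in deletion against control NASH livers, by -0.08 in Ad-Chrebpα against Ad-GFP livers and by -0.68 in control NASH against Ad-GFP livers. Mlxipl stood at 68.5 to 103 normalised FPKM in control NASH livers and 57.2 to 116 in deletion livers, and at 31.7 to 40.2 in Ad-GFP and 37.8 to 41 in Ad-Chrebpα livers, so the groups overlapped in both experiments. A value for the whole gene pools its isoforms and does not check the deleted stretch. Of 12 listed ChREBP targets, 0 were called higher and 5 lower in Ad-Chrebpα livers (Fasn, Elovl6, Pklr, Acly and Tkfc). Of all genes, 4.95% were called higher and 3.18% lower. These 5 moved in a direction opposite to the label, while the fitted log2 difference was above 0 for 4 of the 12. In deletion livers 0 of the 12 were called. Hepatocyte markers such as Alb and Apoa1 were present in every group, with 9 of the 10 listed markers in the tables.

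Promoter sequence shows which of the genes carry the letters of an antioxidant response element close to their start. RefSeq promoter entries (GRCm38.p6) were matched for 29 of the 33 genes, and not for Gsta4, Gclc, Gsr and Hmox1. The core TGACNNNGC, searched on both strands in the 250 bases before the start, occurred in 8 of 29 (27.6%) and in 11.5% of 27025 genes. The same core followed by A, a subset of these matches, occurred in Txnrd1 and Gsta3, 6.9% of the 29 against 2.8% of all genes. CACGTG, an E-box, was found in 0 of 29 and in 6.9% of all genes. A match is a description of the letters and not a site. The windows below were chosen because the genes are the regulator, the cysteine ligase subunit that rose in Ad-Chrebpα livers, a thioredoxin reductase and the entry enzyme of the pentose phosphate pathway. The core is in capitals, and each window reads 5′ to 3′ along its gene.
Nfe2l2, chr2:75704886-75704912, minus strand: cagcccaccTGACTCCGCcatgccccg
Gclm, chr3:122245414-122245440, plus strand, core on the opposite strand: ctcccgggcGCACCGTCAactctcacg
Txnrd1, chr10:82859105-82859131, plus strand, core on the opposite strand: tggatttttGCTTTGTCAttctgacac
G6pdx, chrX:74428920-74428946, minus strand, core on the opposite strand: ggcgggtcaGCTCAGTCAaagcacacg

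In the deletion experiment none of the 32 tested genes passed the test (edgeR quasi-likelihood, Benjamini-Hochberg adjusted p below 0.05 over all genes). That was 0 of 32 beside 0% of all 12786 genes tested. The lowest adjusted p among the 33 was 0.31. Slc7a11 was too low to be tested. Fitted log2 differences were above 0 for 26 of 32 genes with a median of 0.26, beside 51.5% and 0.01 over all genes. At an unadjusted p below 0.05, 7 of the 32 were higher and 0 lower, beside 7.7% and 5.88% of all genes. DESeq2 called 1 of them, Gstm1 (adjusted p = 0.0264), beside 158 of all genes. Without deletion liver 21 edgeR called 3 of them, Gsta4 and Gstm2 higher and Gstp1 lower, beside 420 of all genes. Leaving out any other liver, edgeR called 0 genes.

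In the overexpression experiment 4 of 33 genes rose and 0 fell, 12.1% beside 8.13% of all 13658 genes tested. Higher calls made up 4.95% and lower calls 3.18% of all genes. The 4 were Gsta2, Gstm4, Nqo1 and Gclm. Fitted log2 differences were above 0 for 24 of 33 with a median of 0.07, beside 47.4% and -0.01 over all genes. At an unadjusted p below 0.05, 9 were higher and 3 lower, beside 13.5% and 13% of all genes. These calls depended on single livers: leaving out one liver at a time left 0 calls (without 11), 1 (without 9, 13 or 16), 2 (without 10 or 15), 4 (without 12) or 5 (without 14), and a single fit of all 16 libraries called 0 of the 33. Over all genes, leaving out one liver gave 400 to 1722 calls and the fit of 16 libraries 336, against 1110 in the main fit. DESeq2 called 9, the same 4 with Gclc, Gpx1, Gsta4 and Gstm1 higher and Nfe2l2 lower. It called more over all genes too, 1101 higher and 840 lower. On log2(FPKM + 1) limma called 3 higher (Gsta2, Gstm4, Nqo1) and 3 lower (Nfe2l2, Gss, Gstm2). On that scale calls over all genes were 436 higher and 1010 lower, against 676 and 434 with edgeR.

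Control NASH livers differed from Ad-GFP livers in 23 of 33 genes, 69.7% beside 59.1% of all 13488 genes tested. Of the 33, 6 were higher (18.2%, beside 28.2% of all genes) and 17 lower (51.5%, beside 30.9%). Without overlap 6 were higher and 14 lower, beside 29.2% and 27.2% of all genes. Diet, weeks of diet, floxed genotype and virus changed together here and cannot be told apart. Both groups also serve as controls in the other comparisons. On log2(FPKM + 1) limma called 0 higher and 24 lower of the 33, with 740 higher and 9860 lower over all genes. Summed hepatocyte markers stood at 89401 to 101247 normalised FPKM in control NASH and 35268 to 45774 in Ad-GFP livers, with 9 of 9 called higher. Summed macrophage and Kupffer cell markers stood at 79.3 to 161 against 606 to 895, with 10 of 12 called lower and 1 higher. In bulk tissue fewer cells of a type and less RNA per cell cannot be told apart, and the part of cell makeup in these differences was not tested.

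**Figure D1:**
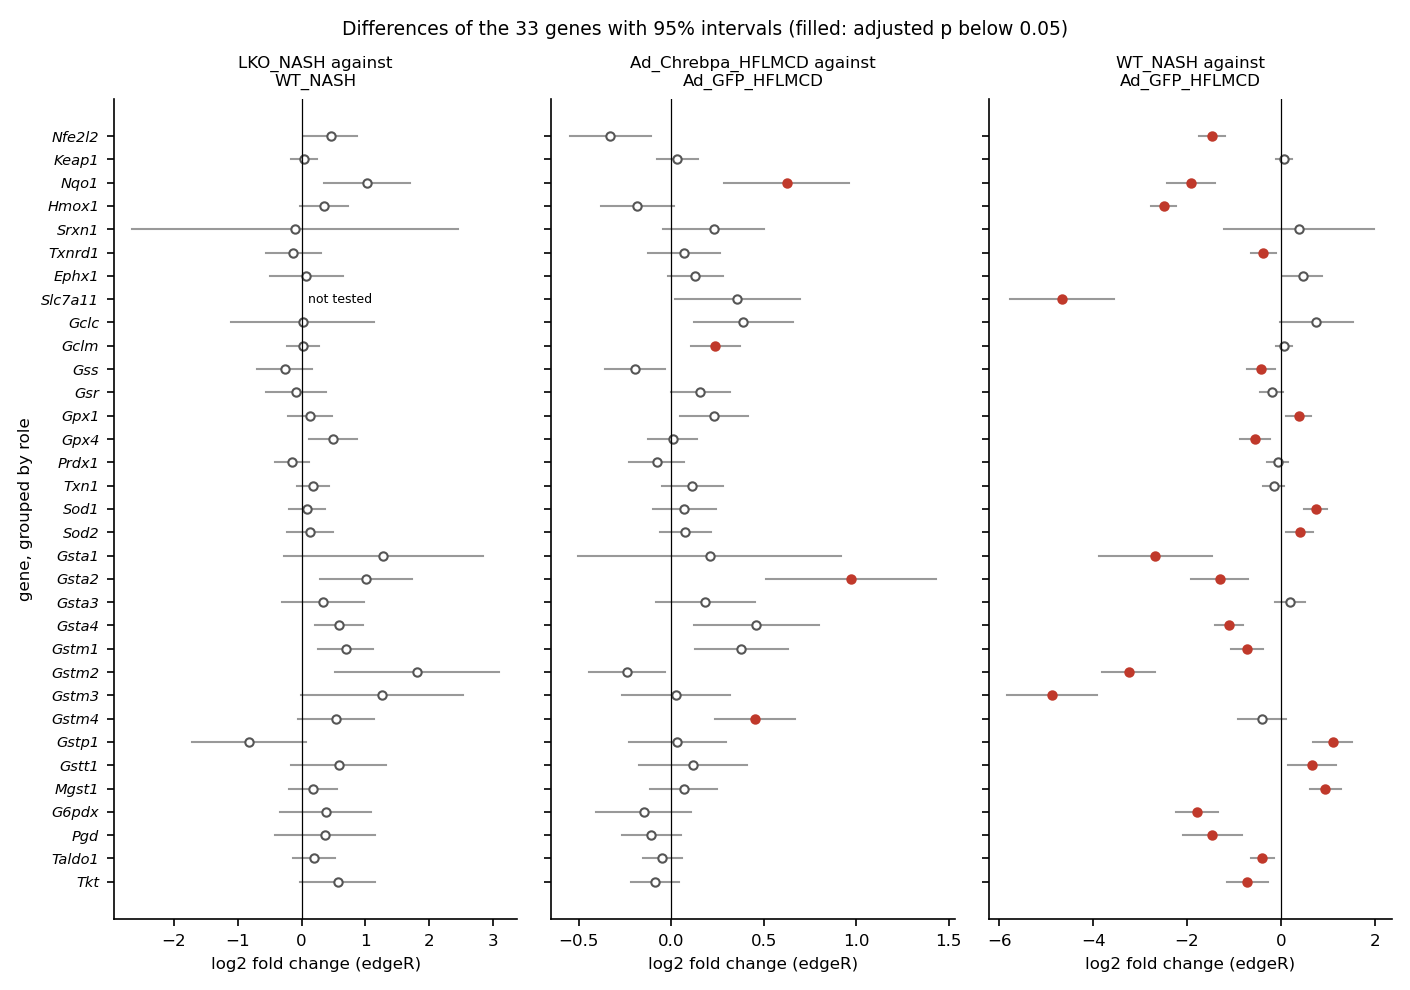
Log2 fold changes (x axis, edgeR) of the 33 genes (y axis, grouped by role) with 95% intervals in 3 comparisons; filled points passed the test at an adjusted p below 0.05. None is filled for deletion against control NASH livers, 4 are filled for Ad-Chrebpα against Ad-GFP livers and 23 for control NASH against Ad-GFP livers; the x axes differ in range.

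Among the regulators, Nfe2l2 stood at 24.3, 19.7, 27.6 and 27.9 normalised FPKM in control NASH livers 17 to 20 and at 23.4, 34.4, 34.5 and 43.4 in deletion livers 21 to 24. Deletion liver 21 lay among the controls and the other 3 above them. The log2 difference was 0.46 (SE 0.18, edgeR adjusted p = 0.358), not called. Ad-GFP livers 9 to 12 held 58.8, 67.6, 73 and 65.2 normalised FPKM of Nfe2l2, and Ad-Chrebpα livers 13 to 16 held 48.4, 63.4, 49.3 and 51. Liver 14 alone overlapped the Ad-GFP range. This log2 difference was -0.33 (SE 0.10, edgeR adjusted p = 0.065), not called by edgeR but called by DESeq2 (adjusted p = 0.0206), and without liver 14 it was -0.43 (adjusted p = 0.0102). The difference between the 2 experiments' log2 differences was 0.77 (SE 0.22, edgeR adjusted p = 0.0761), not called, where 2.6% of all genes passed. Between the controls, Nfe2l2 was lower in NASH livers by a log2 difference of -1.46 (SE 0.12, edgeR adjusted p = 7.7e-06), with no overlap. Keap1, the adaptor that targets Nrf2 for degradation, ranged from 15.6 to 19.3 normalised FPKM over all 16 livers. Its log2 differences were 0.04 (95% interval -0.16 to 0.25) for the deletion, 0.03 (-0.08 to 0.14) for the overexpression and 0.07 (-0.10 to 0.24) between controls.

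Nqo1, a quinone reductase widely used as a readout of Nrf2, was the target enzyme with the lowest p in the deletion experiment. Its levels were 1.70, 1.95, 3.57 and 2.32 normalised FPKM in control NASH livers and 4.53, 6.48, 5.65 and 2.91 in deletion livers. Deletion liver 24 fell within the control range. The log2 difference was 1.03 (SE 0.30, edgeR adjusted p = 0.312), not called. In Ad-GFP livers Nqo1 stood at 8.12, 7.08, 9.60 and 10.7 normalised FPKM, against 16.5, 13.7, 14.2 and 10.8 in Ad-Chrebpα livers. All 4 of the latter lay above all Ad-GFP livers, liver 16 by a narrow margin. Nqo1 rose by 0.62 on the log2 scale (SE 0.15, edgeR adjusted p = 0.036) and was called in 3 of 8 fits that left out one liver. Between controls it was lower in NASH livers, by a log2 difference of -1.92 (SE 0.23, edgeR adjusted p = 7.02e-05).

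Hmox1, the heme-degrading enzyme, separated the experiments and not the groups within them. It stood at 12.6, 10.6, 15.5 and 14.6 normalised FPKM in control NASH livers and at 18.9, 19.5, 12.2 and 17.1 in deletion livers. Ad-GFP livers held 69.5, 77.4, 66.4 and 78.5, and Ad-Chrebpα livers 54.6, 67.8, 72.2 and 64.3. The log2 difference between controls was -2.50 (SE 0.12, edgeR adjusted p = 9.5e-07), and within the experiments it was 0.35 (adjusted p = 0.383) and -0.19 (adjusted p = 0.213). Hmox1 is also a gene of macrophages that clear red cells, and the macrophage marker sums given above moved in the same direction between the controls. Whether they bear on it was not tested.

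Srxn1, which repairs overoxidised peroxiredoxins, differed more among NASH livers than between groups. Control NASH livers held 180, 10.4, 16.1 and 99.9 normalised FPKM and deletion livers 232, 15, 16.7 and 16.4. Livers 17, 20 and 21 stood high and the other 5 between 10.4 and 16.7. In the HFLMCD experiment all 8 livers lay between 46.6 and 76. The log2 difference of the deletion was -0.10 (SE 1.13), and -2.23 without liver 21 (edgeR adjusted p = 0.14). Txnrd1, the cytosolic thioredoxin reductase, was also highest of the NASH livers in 17 and 21, with 51.8, 35.6, 37.0 and 43.3 normalised FPKM in control NASH and 53.7, 33.6, 30.8 and 33.9 in deletion livers. Ad-GFP livers held 50, 49.6, 51.4 and 57.9, and between controls Txnrd1 was lower in NASH livers, by -0.37 (SE 0.12, edgeR adjusted p = 0.0204). That call was lost without liver 12, 18 or 19 (adjusted p up to 0.0628). Ephx1, microsomal epoxide hydrolase, ran from 227 to 488 normalised FPKM over the 16 livers and was not called in the main fit of any comparison. Between controls its edgeR adjusted p was 0.052. It was called there with DESeq2, with DESeq2 size factors, in the fit of 16 libraries and without liver 18.

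**Figure D2:**
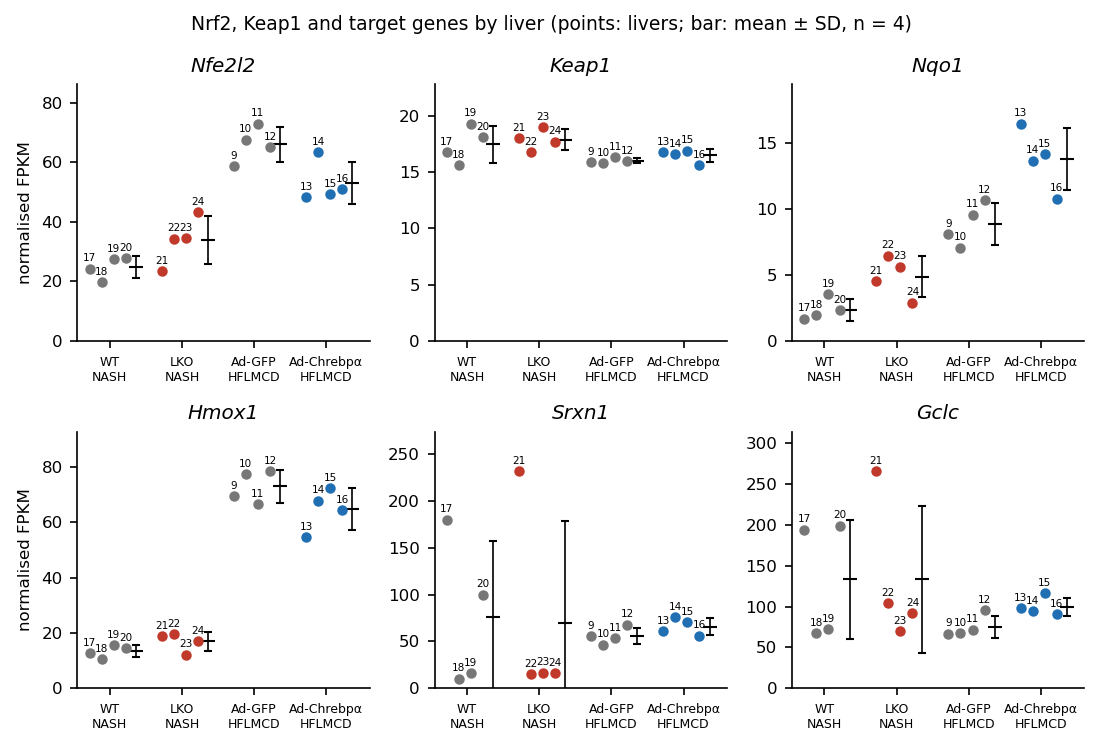
Normalised FPKM (y axis, from 0) of Nfe2l2, Keap1 and 4 target or glutathione genes in each liver (points with liver numbers), with the mean and SD of 4 livers beside each group; SD bars that would pass below 0 are cut at the axis. Nqo1 is higher in all 4 Ad-Chrebpα livers than in any Ad-GFP liver, and Srxn1 and Gclc are high in NASH livers 17, 20 and 21.

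Glutathione synthesis starts with glutamate cysteine ligase, made of the catalytic subunit Gclc and the modifier subunit Gclm. Gclm stood at 76.7, 82.5, 76.4 and 84.4 normalised FPKM in Ad-GFP livers and at 87.1, 97.2, 100 and 96.2 in Ad-Chrebpα livers, without overlap. It rose by 0.24 on the log2 scale (SE 0.06, edgeR adjusted p = 0.0384), the smallest of the 4 called differences, and was called in 1 of 8 fits that left out one liver. In the NASH experiment it stood between 73.3 and 99.7 in all 8 livers, with a log2 difference of 0.02 (95% interval -0.23 to 0.27). Gclc held 66.8, 67.9, 71.6 and 95.5 normalised FPKM in Ad-GFP and 98.1, 94.2, 116 and 91 in Ad-Chrebpα livers. Only Ad-GFP liver 12 reached the other group, and the log2 difference was 0.39 (SE 0.12, edgeR adjusted p = 0.0739), not called by edgeR but called by DESeq2 (adjusted p = 0.0215). In NASH livers Gclc showed the split seen for Srxn1, with 194, 67.6, 72.2 and 199 normalised FPKM in controls and 266, 104, 70.3 and 92.2 in deletion livers. Its log2 difference was 0.02 (SE 0.50).

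The cystine transporter gene Slc7a11 was the lowest of the 33 in every group. Expected counts were 197.95 to 330.54 in HFLMCD livers, while control NASH livers had 0, 0, 14.83 and 8.31 and deletion livers 22.74, 10.27, 2.06 and 10.7. In normalised FPKM the Ad-GFP livers held 0.638, 0.704, 0.520 and 0.604. Slc7a11 was lower in control NASH livers (edgeR adjusted p = 3.61e-05). Its fitted log2 difference of -4.67 depends on the prior count, since 2 of the livers had none. Gss, glutathione synthetase, held 56.3, 51.8, 55.0 and 64.5 normalised FPKM in Ad-GFP and 50.6, 34.5, 39.4 and 51.9 in control NASH livers, and was lower in the latter by -0.42 (SE 0.13, edgeR adjusted p = 0.0178), a call lost without liver 12 (adjusted p = 0.0548). In Ad-Chrebpα livers it stood at 48.9, 53.8, 49 and 48.6, with a log2 difference from Ad-GFP of -0.20 (adjusted p = 0.118), not called. Gsr, which reduces oxidised glutathione with NADPH, ran from 19.4 to 36.4 normalised FPKM over the 16 livers and was not called by edgeR in any comparison. On log2 FPKM limma called it lower in control NASH than in Ad-GFP livers.

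None of the 6 peroxidase, thioredoxin and dismutase genes passed the edgeR test in either experiment. Gpx1, the main cytosolic glutathione peroxidase, held 1220, 1021, 1173 and 1267 normalised FPKM in Ad-GFP and 1330, 1499, 1300 and 1411 in Ad-Chrebpα livers. These did not overlap, yet the log2 difference of 0.23 (SE 0.08, edgeR adjusted p = 0.108) was not called by edgeR, and was by DESeq2 (adjusted p = 0.044). With Nqo1, Gclm, Gsta2 and Gstm4 it was 1 of 5 genes of the 33 that were higher in all Ad-Chrebpα livers, while 0 were lower in all. Over all genes 9.96% were higher and 6.75% lower without overlap. Gpx4, which reduces lipid peroxides in membranes, stood at 211, 226, 329 and 251 normalised FPKM in control NASH and 314, 339, 344 and 428 in deletion livers. Its log2 difference was 0.50 (SE 0.17, edgeR adjusted p = 0.343), not called.

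Between the controls 3 of these 6 genes were higher in NASH livers and 1 was lower, where 28.2% of all genes were called higher and 30.9% lower. Sod1, the cytosolic superoxide dismutase, stood at 589, 519, 606 and 588 normalised FPKM in Ad-GFP and at 912, 1066, 1107 and 914 in control NASH livers, a log2 difference of 0.74 (SE 0.11, edgeR adjusted p = 0.000238). Sod2, its mitochondrial counterpart, went from 40.6, 35.7, 37.9 and 39.5 to 47.2, 63.9, 56.7 and 42.9, a difference of 0.40 (SE 0.13, edgeR adjusted p = 0.0216). Gpx1 reached 1640, 1654, 1710 and 1337 in control NASH livers, 0.39 above Ad-GFP (SE 0.12, edgeR adjusted p = 0.0197). The dismutases and Gpx1 did not overlap between the controls. Gpx4 was the lower one, from 356, 339, 345 and 396 in Ad-GFP livers, by -0.55 (SE 0.14, edgeR adjusted p = 0.00724). It did not overlap either, where 29.2% of all genes were higher and 27.2% lower without overlap. On log2(FPKM + 1) Gpx1 and Sod2 turned to -0.24 and -0.23. The Gpx1 call was lost without liver 10 (edgeR adjusted p = 0.0617) and the Sod2 call without liver 10 or 11 (adjusted p up to 0.0602). Prdx1, a peroxiredoxin, and Txn1, thioredoxin, were not called by edgeR in any comparison and ran from 507 to 673 and from 126 to 184 normalised FPKM. On log2 FPKM limma called both lower in control NASH than in Ad-GFP livers.

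Glutathione transferases attach glutathione to electrophiles. They are close paralogs, and reads can be shared between them or with pseudogenes. Of the 50-base stretches in the GENCODE M21 transcripts, 89.7% of those of Gsta1, 47.4% of those of Gsta2 and 51% of those of Gstp1 also occur in other genes, while for Gstm4, Gsta4 and Mgst1 none do. Outside the transferases, 51.4% of those of Gpx4 and 23.1% of those of Sod1 also occur in other genes, so reads can be shared there too. Expected counts with decimals, which may arise when reads are divided between genes or transcripts, were present in at least 12 libraries for 9 of the 33, among them Gsta1, Gsta2, Gstm1 to Gstm4 and Gstp1. Values of those genes are uncertain to that extent. Gpx4 and Sod1 had such decimals in 0 of 16 libraries. Coding sequences of Gstm1 and Gstm2, taken as the longest open reading frame of 657 bases in each, were identical at 86% of positions, and Gstm1 and Gstm3 at 89.5%. The 60-base stretch in which Gstm1 and Gstm2 differ most, coding bases 592 to 651, is shown because these neighbours in sequence had different levels. Capitals mark the 18 positions that differ.
Gstm1: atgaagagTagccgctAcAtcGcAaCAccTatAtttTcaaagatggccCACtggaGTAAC
Gstm2: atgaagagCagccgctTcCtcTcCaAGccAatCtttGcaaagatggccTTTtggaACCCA

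In the deletion experiment 10 of the 11 transferases had log2 differences above 0, with a median of 0.59, and none was called. Gstm1 was the 1 gene of the 33 whose groups did not overlap, in which 0 were lower without overlap, beside 2.81% of all genes higher and 3.26% lower without overlap. It held 842, 869, 1246 and 1093 normalised FPKM in control NASH and 1398, 1863, 1887 and 1348 in deletion livers, a log2 difference of 0.69 (SE 0.19, edgeR adjusted p = 0.31). Gsta4, active on lipid peroxidation aldehydes, held 36.3, 42.7, 32.6 and 29.1 against 40.2, 65.7, 51.3 and 53. Liver 21 was the one deletion liver within the control range, and the difference was 0.59 (SE 0.17, edgeR adjusted p = 0.31). Without that liver it was 0.70 (edgeR adjusted p = 0.0455).

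Gstm2 had the largest fitted log2 difference of the 32 genes tested for the deletion. It stood at 14.5, 21.2, 22.3 and 9.20 normalised FPKM in control NASH livers and at 14.0, 63.5, 118 and 38.3 in deletion livers. Liver 21 again lay among the controls, and the other 3 above all of them. The log2 difference was 1.81 (SE 0.57, edgeR adjusted p = 0.338), and 2.13 without liver 21 (adjusted p = 0.0389). Gsta2 held 10.1, 20, 16.3 and 11.6 against 23.8, 48.1, 18.7 and 25, a difference of 1.00 (SE 0.32, edgeR adjusted p = 0.338). Gstp1, the class pi enzyme, was the 1 transferase with a difference below 0, at 4786, 3037, 3192 and 4863 in control NASH and 4367, 1403, 1238 and 1919 in deletion livers. Deletion livers 22 to 24 lay below every control and liver 21 among them, with a log2 difference of -0.82 (SE 0.39, edgeR adjusted p = 0.391) and of -1.37 without liver 21 (adjusted p = 0.0337). Gsta1, Gsta3, Gstm3, Gstm4, Gstt1 and Mgst1 had differences of 0.18 to 1.28 with adjusted p-values of 0.37 to 0.588.

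Livers 17, 20 and 21 had the highest Srxn1, Gclc and Gstp1 of the NASH livers. Dbp, a clock output gene, was looked up after these values were seen. It was lowest in the same livers, at 41.1, 47.3 and 31 normalised FPKM against 67.6 to 116 in the other 5. Mlxipl was also lowest there, at 68.5, 69 and 57.2 normalised FPKM against 79.2 to 116. What set livers 17, 20 and 21 apart was not tested. As 2 of them were controls and 1 a deletion liver, the pattern crossed the groups. The coefficient of variation of the 33 genes within a group had a median of 19.3% in control NASH and 26.4% in deletion livers, beside 12.2% and 13.9% over all genes. In Ad-GFP and Ad-Chrebpα livers it was 9.5% and 11.3%, beside 8.1% and 8%.

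In the overexpression experiment 2 of 11 transferases rose and none fell, where 4.95% of all genes were called higher and 3.18% lower. Higher without overlap were 9.96% of all genes. Gsta2 held 28.1, 23.2, 35.7 and 50.1 normalised FPKM in Ad-GFP and 66.5, 77.4, 56.5 and 71.2 in Ad-Chrebpα livers. The groups did not overlap, and it rose by 0.97 on the log2 scale (SE 0.21, edgeR adjusted p = 0.0225). Gstm4 held 28.4, 25.0, 27.1 and 31.9 against 44.2, 33.5, 37.9 and 39.7, also without overlap, and rose by 0.45 (SE 0.10, edgeR adjusted p = 0.0225). Gsta2 was called in 4 and Gstm4 in 5 of 8 fits that left out one liver. The single fit of 16 libraries gave adjusted p-values of 0.0833 and 0.287. Gstm1 (0.38, adjusted p = 0.0679) and Gsta4 (0.46, adjusted p = 0.089) were not called by edgeR, and were by DESeq2 (adjusted p = 0.014 and 0.0294). Gstm2 was the 1 transferase below 0 (-0.24, adjusted p = 0.132). As a share of the summed transferases, Gstm1 made up 29.7% in Ad-Chrebpα and 25.6% in Ad-GFP livers.

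**Figure D3:**
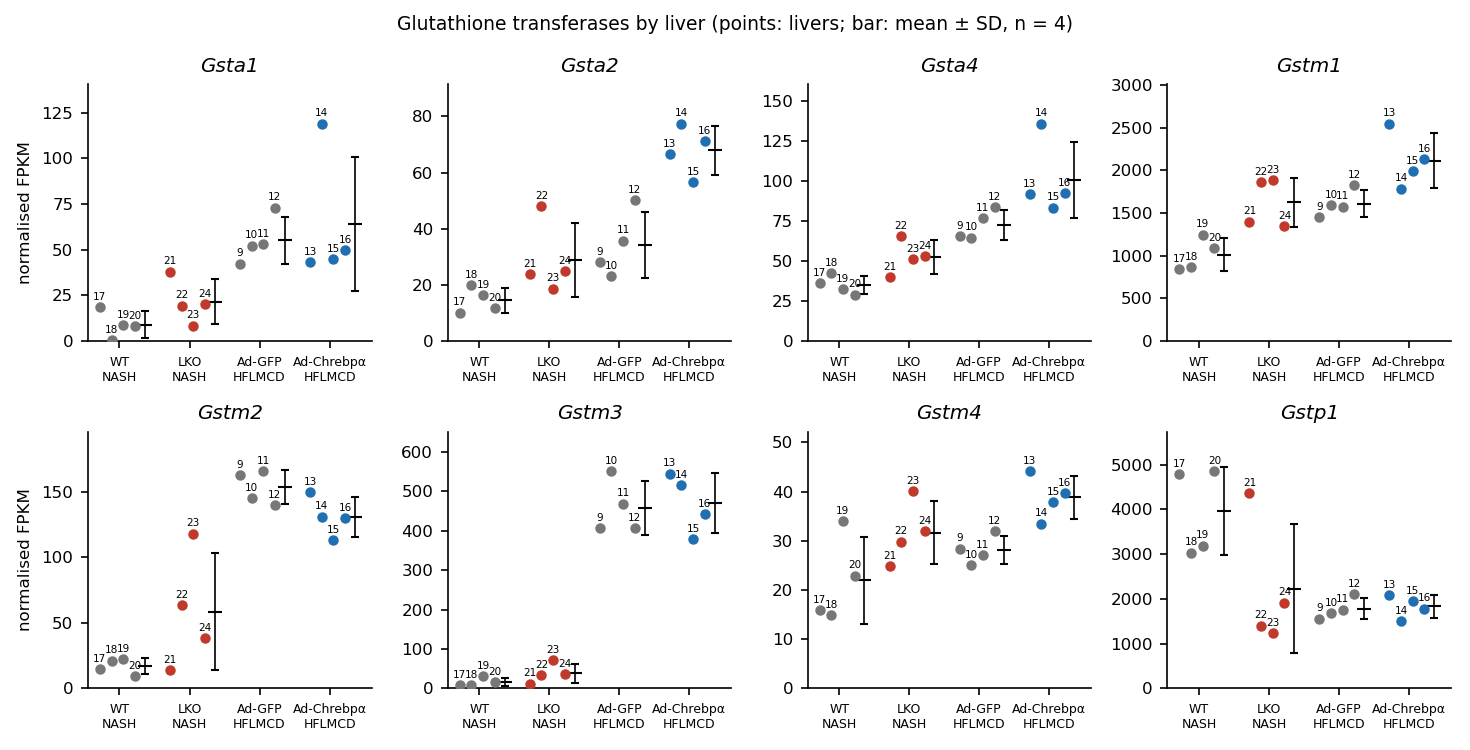
Normalised FPKM (y axis, from 0) of 8 glutathione transferases in each liver (points with liver numbers) of the 4 groups, with the mean and SD of 4 livers. Gsta2 and Gstm4 are higher in all Ad-Chrebpα than in all Ad-GFP livers, Gstm1 is higher in all deletion than in all control NASH livers, and Gstm3 is lower in every NASH liver than in every HFLMCD liver.

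Between controls 6 of 11 transferases were lower and 3 higher in NASH livers, where 30.9% of all genes were lower and 28.2% higher. Gstm3 held 407, 552, 469 and 407 normalised FPKM in Ad-GFP and 8.73, 8.12, 31.2 and 16.2 in control NASH livers, a difference of -4.87 (SE 0.43, edgeR adjusted p = 1.19e-05). Gstm2 went from 163, 145, 166 and 140 to the 9.20 to 22.3 given above, by -3.24 (SE 0.25, edgeR adjusted p = 5.99e-06). For both, no control NASH liver came near the Ad-GFP range. Gsta1 held 42.3, 52.3, 53.0 and 73.1 against 18.4, 0.614, 8.58 and 8.10 (-2.67, SE 0.54, edgeR adjusted p = 0.00181). For Gsta2 the difference was -1.30 (SE 0.27, adjusted p = 0.00234), with edgeR. Gsta4 held 65.5, 64.6, 77.1 and 83.8 in Ad-GFP livers and was lower by -1.10 (SE 0.13, edgeR adjusted p = 7.48e-05). Gstm1 held 1449, 1592, 1576 and 1830 there and was lower by -0.72 (SE 0.15, edgeR adjusted p = 0.00238). These 6 did not overlap between the controls, where 27.2% of all genes were lower without overlap.

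The higher ones were of other classes. Gstp1 held 1558, 1685, 1757 and 2104 normalised FPKM in Ad-GFP livers, below every control NASH liver, a difference of 1.10 (SE 0.18, edgeR adjusted p = 0.000552). Mgst1, a microsomal transferase, held 1477, 1324, 1523 and 1537 against 2636, 2912, 3746 and 2469, a difference of 0.95 (SE 0.15, edgeR adjusted p = 0.000391). Gstt1, class theta, held 112, 79.4, 101 and 100 against 114, 198, 222 and 113, a difference of 0.67 (SE 0.23, edgeR adjusted p = 0.029), and -0.02 on log2(FPKM + 1). It was called in 3 of 8 fits that left out one liver, and not without 10, 11, 12, 18 or 19 (adjusted p up to 0.0827). Gstp1 made up 44.8% of the summed transferases in control NASH and 28.2% in Ad-GFP livers, and Gstm1 11.4% and 25.6%. Gsta3 and Gstm4 were not called in the main fit. On log2 FPKM limma called both lower in control NASH livers, and edgeR called Gstm4 lower without liver 19.

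The 4 pentose phosphate enzymes were not called in either experiment. G6pdx, the NADPH-producing entry step, held 2.73, 1.66, 2.42 and 3.66 normalised FPKM in control NASH and 4.15, 2.57, 4.90 and 2.00 in deletion livers, which overlapped. Its log2 difference was 0.38 (SE 0.32, edgeR adjusted p = 0.559). In Ad-GFP livers it held 7.84, 10.6, 8.50 and 8.18 and in Ad-Chrebpα livers 6.57, 8.81, 8.63 and 7.92, a difference of -0.15 (SE 0.12, edgeR adjusted p = 0.444). All 4 enzymes had log2 differences above 0 for the deletion (median 0.37) and below 0 for the overexpression (median -0.10). For the difference between the experiments 0 of the 33 were called, beside 0.976% of all genes above 0 and 1.62% below.

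All 4 were lower in control NASH than in Ad-GFP livers, with no overlap except for Taldo1. Of all genes, 30.9% were called lower and 27.2% were lower without overlap in that comparison. G6pdx differed by -1.79 (SE 0.20, edgeR adjusted p = 4.76e-05). Pgd, the second NADPH-producing step, held 44.9, 46.4, 39.7 and 50.8 normalised FPKM in Ad-GFP and 13.4, 8.06, 23.5 and 23.3 in control NASH livers, a difference of -1.46 (SE 0.28, edgeR adjusted p = 0.00149). Tkt, transketolase, held 58.8, 63.8, 60.3 and 69.3 against 30.2, 28.7, 54.3 and 46.1, a difference of -0.71 (SE 0.19, edgeR adjusted p = 0.00975). Taldo1, transaldolase, held 85.7, 83.9, 80.3 and 88.5 against 60.6, 65.0, 81.8 and 59.3, a difference of -0.40 (SE 0.11, edgeR adjusted p = 0.0102). The oxidative steps showed wider differences than the sugar-exchanging ones, a contrast that was not tested.

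**Figure D4:**
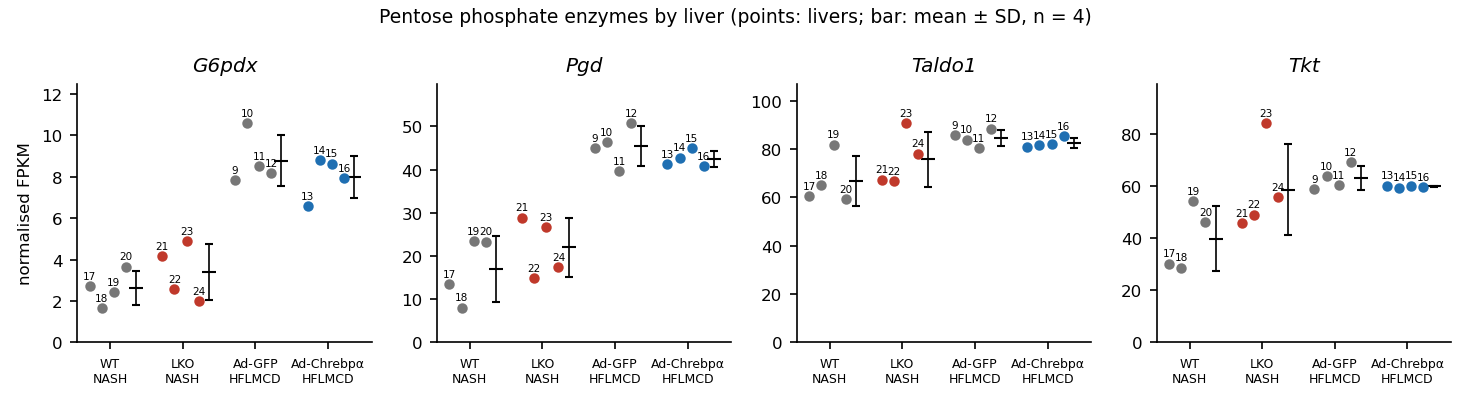
Normalised FPKM (y axis, from 0) of the 4 pentose phosphate enzymes in each liver (points with liver numbers), with the mean and SD of 4 livers. NASH livers lie below HFLMCD livers for G6pdx and Pgd, and the groups within each experiment overlap.

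Other genes of the same pathways were read from lists, to be set beside 4.95% of all genes called higher and 3.18% lower in Ad-Chrebpα livers. There 3 of 12 other Nrf2 partners and brakes rose and 0 fell: Sqstm1, an adaptor that draws Keap1 to autophagy (0.29, SE 0.07, edgeR adjusted p = 0.0253), and the small Maf genes Mafg (0.41, adjusted p = 0.0318) and Maff (0.55, adjusted p = 0.0328). Of 21 other Nrf2-linked targets tested, 5 rose and 0 fell, among them the export pump Abcc2 (0.75, SE 0.07, edgeR adjusted p = 0.000654), the biliverdin reductase Blvrb (0.40, adjusted p = 0.00982) and the carbonyl reductase Cbr1 (0.51, adjusted p = 0.0191). Glo1 rose and Ggct fell among 14 genes of glutathione turnover. Cat, catalase, was the 1 of 21 other peroxidases and thioredoxins that rose, and Gstt2 the 1 of 15 other transferases. Among 13 other pentose phosphate and NADPH genes Nadk2 rose and Nnt fell. A list of the xenobiotic receptors CAR (Nr1i3) and PXR (Nr1i2) with their targets had 6 of 12 higher and 0 lower, and those with the lowest p were the target Cyp3a25 and both receptors. Beside these calls, 4 of 9 cholangiocyte markers fell and 2 of 9 hepatocyte markers rose. Periportal markers had 4 of 10 higher and 1 lower, and erythroid markers 2 of 5 higher and 1 lower. Of 6 B and plasma cell markers Jchain and Mzb1 rose, with sums of 9.19 to 19.5 normalised FPKM against 4.83 to 6.24. The part of these markers in the calls was not tested.

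Between the controls, calls in these lists went both ways, where 59.1% of all genes were called, 28.2% higher and 30.9% lower, so that several of the counts lie near that share. In control NASH livers 4 of 21 other Nrf2-linked targets were higher and 8 lower, among the latter Ptgr1, a prostaglandin and alkenal reductase, at 0.895 ± 0.253 normalised FPKM against 3.66 ± 0.365 in Ad-GFP livers (SD, n = 4 each). Of 12 partners and brakes 2 were higher, among them Cul3, the ubiquitin ligase scaffold that works with Keap1 (0.47, SE 0.07, edgeR adjusted p = 0.000322), and 1 was lower. Glutathione turnover had 9 higher and 4 lower of 14, with Glo1, which clears methylglyoxal with glutathione, at 245 ± 32 against 90.6 ± 7.67 normalised FPKM (SD, n = 4 each). The other peroxidases, thioredoxins and dismutases had 10 higher and 7 lower of 21, and the other transferases 4 and 7 of 15. Of 13 other pentose phosphate and NADPH genes 6 were higher and 5 lower. H6pd, the G6pdx counterpart of the endoplasmic reticulum, was higher (1.06, SE 0.12, edgeR adjusted p = 5.02e-05), whereas Nnt, which makes NADPH in mitochondria, was lower (-1.64, SE 0.11, edgeR adjusted p = 2.81e-06).

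In deletion livers 0 genes of these lists passed. Other Nrf2-linked targets had differences above 0 in 16 of 20. Their sums were 7874 to 9613 normalised FPKM against 5640 to 7060 in control NASH livers, without overlap. At an unadjusted p below 0.05 by edgeR, 4 of the 20 were higher and 0 lower, beside 7.7% and 5.88% of all genes. Other glutathione supply and turnover genes had 5 of 14 above 0 and 9 below. Macrophage and Kupffer cell markers had differences above 0 in 12 of 12, with sums of 94.3 to 265 normalised FPKM against 79.3 to 161 in control NASH livers. Hepatocyte markers had them in 1 of 9, with sums of 61558 to 79105 against 89401 to 101247, without overlap. Summed T and NK cell markers stood at 3.55 to 5.7 against 2.28 to 2.97, without overlap, and 5 of 9 could be tested. At an unadjusted p below 0.05, 3 of these 5 were higher. So were 6 of 12 macrophage and Kupffer cell, 4 of 10 stellate cell and myofibroblast and 3 of 10 sinusoidal endothelium markers. Of 9 hepatocyte markers 0 were higher and 1 lower. Pericentral markers had differences above 0 in 9 of 10, periportal markers in 2 of 10 and the CAR and PXR list in 9 of 12. At an unadjusted p below 0.05, 1 pericentral marker was higher and 0 lower, and 0 periportal markers were higher and 3 lower. In the CAR and PXR list 2 were higher and 1 lower. Whether these markers and lists bear on the transferase values was not tested.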

How the data were processed

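Per the file headers, the authors deposited one table per liver with expected counts (estimated counts, not normalised), and FPKM as calculated by the authors. HISAT2 is named in the submitters' processing notes, without a version; the counter, build and annotation were not given in the sources used here. Of the entries, 26 named by a transcript were summed into genes and 22 symbols were restored by gene number, leaving 17410 genes. Unlisted genes were taken as 0. Libraries of a group differed beyond sampling noise (chi-square per degree of freedom 17.2 to 240.6).

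Expected counts were rounded, and edgeR 4.0.16 under R 4.3.3 was run on them (TMM, filterByExpr, quasi-likelihood F test, two-sided), with 8 libraries per comparison. The difference between experiments came from 1 fit of 16. Genes were called at a Benjamini-Hochberg adjusted p below 0.05 over all genes tested. In a test on simulated data, 50 genes were changed at each fold. The deletion comparison (12786 genes) recovered 22% of 1.5-fold and 88% of 2-fold differences, with 13 of 163 calls false. The overexpression comparison (13658 genes) recovered 66% and 92%, with 13 of 191 calls false. Coefficients of variation of the genes followed here had medians of 19.3% (control NASH) and 26.4% (deletion). Over all genes these were 12.2% and 13.9%. In the real deletion fit Nqo1 (2.04-fold), Gsta2 (2-fold) and Gstm2 (3.5-fold) were not called. The simulated recovery therefore need not hold for the genes followed here. Depth was 21254937 to 40327264 counts.

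The 33 genes, the lists and the rule for naming genes were chosen with earlier results of these data known. The rule gives every liver's value for called genes, for the lowest p up to 5 genes, and for Nfe2l2, Keap1, Nqo1 and G6pdx. From the pathway lists it names up to 3 called genes. Alternatives were DESeq2 1.42.0 and its size factors, limma 3.58.1 (voom, and log2 FPKM with pseudocounts of 1 and 0.1), other filters, 1 fit of 16 libraries and leaving out each liver. Plots used matplotlib 3.10.9.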

Additional observations from a re-analysis of the deposited data

Results flagged for a closer look

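In 7 of 132 groups of 4 values, 1 liver stood apart by Dixon's test; chance flags about 1 in 20 groups. Deletion liver 21 was highest for Srxn1 (232 normalised FPKM, the others 15 to 16.7), Txnrd1 (53.7, the others 30.8 to 33.9) and Txn1 (184). Deletion liver 23 was highest for Sod1 (1186). Ad-GFP liver 12 was highest for Gclc (95.5). Ad-Chrebpα liver 14 was highest for Gss (53.8) and Gsta1 (119). What set these livers apart was not tested.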

How the results depend on the processing

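No paired analysis was possible because the groups share no replicate numbers. Of the 33 genes, the deletion comparison called 0, except for 1 with DESeq2 (158 of all genes) and 3 without liver 21. The 16-library fit called 152 of all genes. Leaving out one liver gave 0 to 3 of the 33 and 0 to 420 of all genes. The overexpression comparison called 9 with DESeq2 (1941 of all genes) and 0 in the 16-library fit (336 of all genes). Leaving out one liver gave 0 to 5 and 400 to 1722. The difference between experiments called 2 with DESeq2 and 2 with either log2 FPKM scale, and 0 to 4 when one liver was left out (1 without 19, 4 without 21). Calls over all genes were counted for that difference only in the main fit (2.6%), so no share stands beside these counts. In the controls 20 to 25 of the 33 were called in every setting, beside 6334 to 10635 of all genes. On log2 FPKM, however, 0 of the 33 were higher and 24 lower.

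Among single genes of the deletion, Gclc turned to -0.01 with limma-voom and Gsr to 0.03 on both log2 FPKM scales. In the overexpression, log2 FPKM gave Keap1 -0.04, Txnrd1 -0.01, Gpx4 -0.06, Gstm3 -0.05, Gstp1 -0.04 and Mgst1 -0.01. In the controls Srxn1 turned to -0.46 with limma-voom. With pseudocounts of 1 and 0.1 there, log2 FPKM gave Keap1 -0.54 and -0.57, Srxn1 -1.03 and -1.08, Gclm -0.54 and -0.55, Sod2 -0.23 and -0.24. It gave Ephx1 -0.20, Gclc -0.03, Gpx1 -0.24, Gsta3 -0.44 and Gstt1 -0.02 with both. The log2 FPKM values include the scale shift given above. Leaving out one liver moved the deletion's Srxn1 from -2.23 to 0.73, Gclc from -0.57 to 0.25, Gsr from -0.34 to 0.01, Ephx1 from -0.09 to 0.26, Gclm from -0.04 to 0.10 and Keap1 from -0.01 to 0.10. It moved the overexpression's Gsta1 from -0.28 to 0.38, Gstm3 from -0.06 to 0.12, Gstp1 from -0.04 to 0.12 and Gpx4 from -0.02 to 0.06, and the controls' Srxn1 from -0.45 to 0.75. The cause was not tested.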
